A study of Mus musculus with 4 samples.

Results

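DNA methylation was followed across 10 genes that mark or maintain colonic stem cells, Lgr5, Ascl2, Olfm4, Smoc2, Sox9, Msi1, Prom1, Cd44, Bmi1 and Lrig1. They were taken as a fixed list out of 21410 autosomal protein-coding genes of the GENCODE M1 annotation (mm9). The list was chosen with earlier results of these data known. Each gene was read from 5 kb upstream of its start to its end in bins of 200 bp, and 1732 of the 2729 bins that hold a CpG had at least 2 CpGs and 10 calls in every library, a call being a methylated or unmethylated reading of a CpG. The level of a bin or region is the percentage of its calls that were methylated.

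The series asked whether intestinal stem cells (ISCs) of the mouse colon change their methylation between birth (postnatal day 0, P0) and the end of suckling (P21), by whole-genome bisulfite sequencing. All mice came from Lgr5-EGFP-CreER animals crossed to wild-type C57 mice and received no treatment. The 4 groups were Lgr5-EGFP+ ISCs at P0 and at P21 and differentiated epithelial cells, sorted as EpCAM+ and Lgr5-EGFP-, at P0 and at P21. Each group was 1 library, from litters pooled at P0 and from reporter-positive offspring pooled at P21, so the spread between animals is unknown, and each test below compares libraries and not conditions. The reporter is a cassette inserted at Lgr5 itself, is driven by that gene's own control sequences and is known to be mosaic, so that the EGFP- gate can hold Lgr5-expressing cells. The cassette is not part of mm9, and whether littermates without it entered the P0 EpCAM+ pool is not given in the sources used here.

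The stem cells at the crypt base divide under Wnt signals and pass their DNA methylation on to the progeny that line the crypt. Lgr5, Ascl2, Smoc2 and Olfm4 belong to the crypt base program in rodent or human gut, Sox9, Msi1, Prom1 and Cd44 mark stem and progenitor cells more broadly, and Bmi1 and Lrig1 have been used to mark slower-cycling or quiescent stem cells. In mammals methylation is low at CpG-dense promoters, high in gene bodies, and often reduced at enhancers that are in use.

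Depth was uneven. Between 54.2% and 68.4% of the calls in tested bins lay in 285 bins with over 10000 calls in some library, none of them in the 10 genes, and the calls outside them numbered 301367560 and 502382000 at P0 and 315144793 and 414520453 at P21, ISCs named before differentiated cells. The median bin of the 10 genes had 61, 88, 65 and 74 calls, in the order ISCs and differentiated cells at P0, then ISCs and differentiated cells at P21. Wilson 95% intervals below cover counting error only, and take every call as independent. PCR copies without molecular identifiers and CpGs on the same read are not independent, so the intervals can be too narrow. The tests below rest on the same calls, so their p-values can be too small. As a check of the tissue, which says nothing of age or population, the promoters of 8 epithelial genes had median levels of 2.76% to 5.56%, against 71.5% to 78.4% for the 6 leukocyte genes tested and 44.0% to 53.5% for 7 stromal and endothelial genes. Single genes went against their list, namely epithelial Krt20 at 51.0% to 56.0% and Hnf4a at 32.3% to 35.1% at P0, leukocyte Coro1a at 7.31% to 11.2% and stromal Col1a2 at 4.26% to 9.98%. Some markers also moved with age in both populations, in either direction. Hnf4a fell to 13.4% in both at P21, Ptprc fell from 76.4% and 78.4% to 71.2% and 66.5%, and Tagln rose from 37.7% and 34.2% to 53.5% and 49.6%. The cause of these shifts was not tested.

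Lrig1 stood apart from the other genes, with a loss of methylation over most of its body that appeared in both populations. Bins were called where Fisher's exact test (two-sided), with Benjamini-Hochberg adjustment over all 4076373 autosomal bins tested, gave an adjusted p under 0.05 with a difference above 15 points. From P0 to P21 in ISCs, 193 of the 1732 bins were called, 11.1%, against 2.56% of all autosomal bins and 2.88% of bins in protein-coding genes. They were 33 gains and 160 losses, where 1.07% of all autosomal bins were gains and 1.48% losses. In differentiated cells 229 bins were called, 13.2% against 2.86% of all bins and 3.24% of those in protein-coding genes. These were 31 gains and 198 losses, beside 0.992% and 1.86% of all bins. Lrig1 held 100 and 134 of these losses and no gain. Without Lrig1, which was left out after its values were seen, 6.51% and 6.65% of the 1429 remaining bins were called, so the other 9 genes also lay above the background. Other lists, also chosen with earlier results of these data known, lay above it too. In the same order, 9.61% and 10.7% of the bins were called in 16 other crypt base and Wnt-linked genes, and 6.95% and 8.44% in 10 differentiated colonocyte genes.

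**Figure D1:**
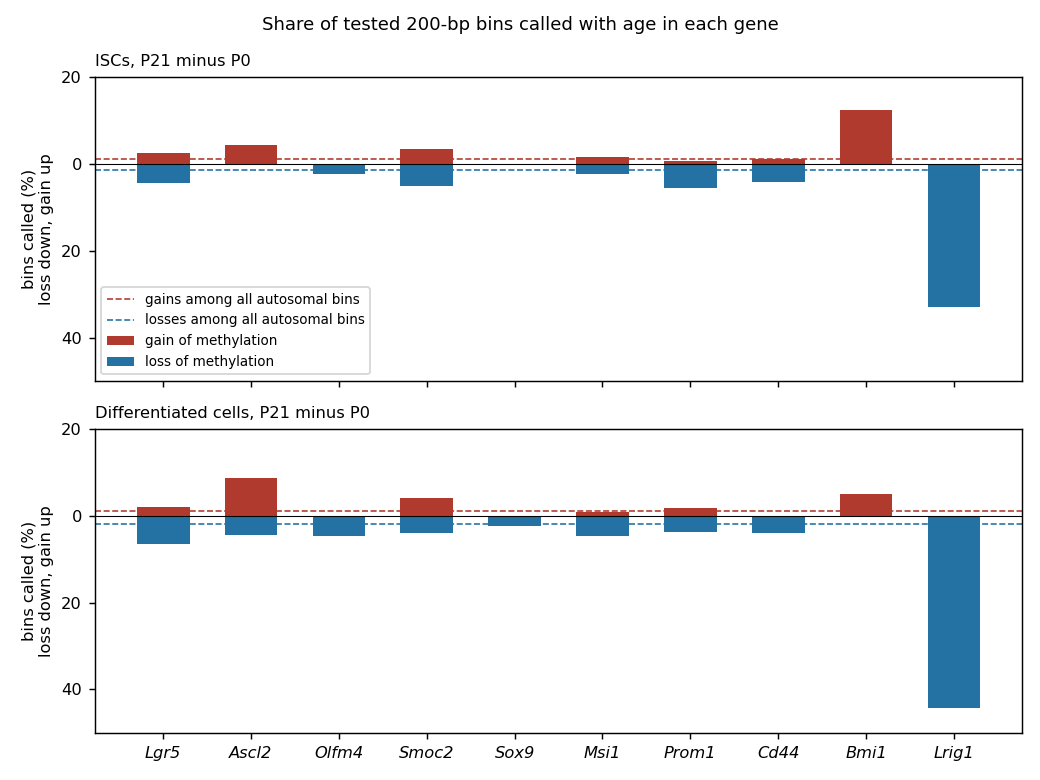
Share of the tested 200-bp bins of each gene that gained (red, upward) or lost (blue, downward) methylation from P0 to P21, in ISCs (top) and in differentiated cells (bottom), in percent of the gene's bins. Dashed lines give the shares among all autosomal bins. The losses of Lrig1 reach 33.0% of its bins in ISCs and 44.2% in differentiated cells, and no bar of another gene passes 13%.

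Lrig1 encodes a transmembrane protein that restrains growth factor receptors of the ErbB family. Its body, between the promoter and the last exon, had 65.7% at P0 in ISCs and 69.5% in differentiated cells, and 43.6% and 45.4% at P21, from 24892 to 42836 calls. Both P21 libraries were below both P0 libraries. The fall was 22.1 points in ISCs (difference -22.1, interval -23.0 to -21.3) and 24.1 points in differentiated cells (-24.1, interval -24.8 to -23.4). Among all 17624 bodies tested the fall ranked 44 in ISCs and 35 in differentiated cells, and 16 others fell as far in both. Narrower sets were not fixed in the design, so the ranks within them are descriptions. Among the 13999 bodies with 1000 calls in every library the ranks were 10 and 6, and 4 other bodies fell as far in both populations. Among the 4090 gene bodies over 50000 bp the fall of Lrig1 ranked 1 in both populations, and no other body of that length fell as far in both. The promoter, 1 kb either side of the start, stayed between 0.185% and 0.269% in all 4 libraries.

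The loss within Lrig1 was not even. Up to 48 kb from the start the level went from 48.7% to 17.9% in ISCs and from 52.0% to 18.2% in differentiated cells, and in the rest of the gene from 80.8% to 66.9% and from 83.5% to 67.1%. The steepest 5-kb window, 10 to 15 kb into the gene, had 68.8% and 74.7% at P0 against 6.51% and 8.41% at P21. Around the start, the stretch in which every tested bin was below 20% was 3000 bp wide at P0 in both populations (14 tested bins) and 11200 bp at P21 in both (33 tested bins). It began at the same place upstream of the start in all 4 libraries and was longer inside the gene. Of the 388 CpGs of the 5′ part with 10 calls in every library, 318 were lower at P21 in ISCs and 355 in differentiated cells, by any amount. In the rest of the gene 348 and 373 of 499 such CpGs were lower. In the 100 kb upstream these were 261 and 257 of 619, and in the 100 kb downstream 296 and 309 of 668. The flanks as a whole kept their level. The 100 kb upstream had 69.4% and 69.0% at P0 and 70.0% and 69.8% at P21, and the 100 kb downstream 84.3% and 85.1%, then 84.8% and 84.9%. Opposite shifts of single 5-kb windows cancelled in these means. The window 90 to 85 kb upstream fell from 68.8% to 52.9% in ISCs and from 80.4% to 54.8% in differentiated cells, and that 35 to 30 kb upstream fell by 13.1 and 12.9 points. The window 75 to 70 kb upstream rose from 59.9% to 76.6% and from 58.6% to 79.3%. Downstream the largest was a rise of 13.1 and 9.02 points, and no flanking window fell as far as the steepest ones of the gene.

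**Figure D2:**
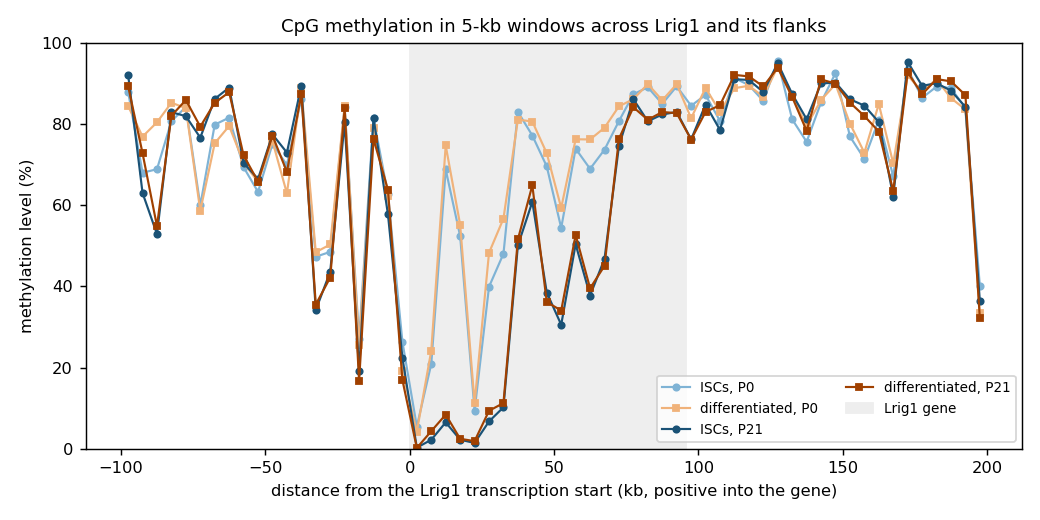
Methylation level (%) in 5-kb windows against the distance from the Lrig1 start (kb), 1 line per library, with the gene in grey. The lines of both P21 libraries run close together and below both P0 lines from about 5 to 70 kb into the gene. On either side of it single windows differ with age in both directions, by -25.6 to 20.7 points in differentiated cells.

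The longest runs of adjacent called bins in Lrig1 lay in intron 1. A run of 6 bins (chr6:94636201-94637400, centred 13352 bp into the gene) had 75.1% at P0 in ISCs and 78.3% in differentiated cells, and 5.43% and 7.15% at P21. A run of 5 bins (chr6:94631601-94632600) went from 52.1% to 2.19% in ISCs and from 59.7% to 2.61% in differentiated cells. Farther in, 4 bins of intron 3 (chr6:94584601-94585400) had 58.8% and 69.6% at P0 and 11.8% and 17.2% at P21. The 3 largest differences of any bin of the 10 genes with age in ISCs were all in this intron 1. The bin chr6:94639201-94639400 had 90.6% in ISCs at P0 and 3.19% at P21, and 93.3% and 28.6% in differentiated cells, and at P21 it also differed between the populations (adjusted p = 0.00367, Fisher's exact test). The bin chr6:94636401-94636600 went from 89.1% to 4.24% in ISCs and from 84.7% to 12.4% in differentiated cells. The third is printed here because it carried the largest difference of Lrig1 seen in both populations at once, in the direction of transcription with its CpGs in capitals (mm9, chr6:94634601-94634800, minus strand).
Lrig1 intron 1: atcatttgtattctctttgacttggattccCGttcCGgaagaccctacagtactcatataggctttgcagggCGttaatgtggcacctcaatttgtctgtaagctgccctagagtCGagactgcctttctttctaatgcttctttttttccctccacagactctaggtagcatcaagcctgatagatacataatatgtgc
Its 4 CpGs together had 82.1% (76.0 to 86.9%, 190 calls) in ISCs and 80.6% (72.1 to 86.9%, 108 calls) in differentiated cells at P0. At P21 they had 0.535% (0.0945 to 2.97%, 187 calls) and 4.90% (2.39 to 9.76%, 143 calls). Each CpG moved with the others, since single CpGs lay between 65.4% and 92.9% in the P0 libraries and at 12.1% or less in the P21 libraries. In differentiated cells the largest difference was in chr6:94629601-94629800, where 93.6% at P0 stood against 0 of 39 calls at P21, which allows a level of up to 7.69%. The third largest there, after an Lgr5 bin described next, was chr6:94637801-94638000, which went from 90.9% (22 calls) to 10% (30 calls).

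Lgr5, the receptor for R-spondins that amplifies Wnt signals and drives the reporter, was level as a whole and changed at scattered sites. Its body had 73.4% at P0 in ISCs and 74.3% in differentiated cells, and 73.9% in both at P21. Its last exon lay between 92.8% and 94.7%. The promoter had 2.97% (2.05 to 4.29%) at P0 in ISCs and 1.75% (1.33 to 2.32%) in differentiated cells, and 1.49% (0.918 to 2.40%) and 5.77% (4.82 to 6.88%) at P21. The differentiated cells at P21 were thus the highest, and their interval did not overlap those of the other 3 libraries. None of these regions passed 5 points between any pair of libraries compared. Part of the P21 excess lay at the start itself, where the 250 bases before to 50 after it had 6.14% of 521 calls in differentiated cells at P21 and at most 0.948% in the other libraries. Another part lay at the outer edge of the promoter, where 2 adjacent bins (chr10:115025201-115025600) had 5%, 5.05% and 5.08% in the other libraries and 23.3% in differentiated cells at P21.

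Inside Lgr5, 24 of its 342 tested bins were called with age in ISCs (9 gains and 15 losses) and 29 in differentiated cells (7 gains and 22 losses), and 12 were called in the same direction in both. The calls in ISCs and in differentiated cells were 7.02% and 8.48% of its bins, beside 2.56% and 2.86% of all autosomal bins. The 12 shared ones were 9 losses and 3 gains, where 0.673% and 0.255% of all autosomal bins were shared losses and gains. The steepest is printed to show how few CpGs such a change can rest on (mm9, chr10:114941001-114941200, intron 2, minus strand, CpGs in capitals).
Lgr5 intron 2: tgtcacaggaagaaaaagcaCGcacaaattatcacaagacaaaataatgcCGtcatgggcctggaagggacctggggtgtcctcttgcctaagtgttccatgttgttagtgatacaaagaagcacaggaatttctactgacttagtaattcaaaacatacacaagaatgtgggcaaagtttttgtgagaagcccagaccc
Its 2 CpGs had 94.4% of 18 calls methylated at P0 in ISCs and 100% of 15 in differentiated cells, and 15.4% (26 calls) in each at P21, so that intervals are wide (74.2 to 99.0% and 6.15 to 33.5% in ISCs). Deeper bins moved less. The bin chr10:114923201-114923400 in intron 4 had 73.9% (436 calls), 81.9% (619 calls), 28.2% (393 calls) and 46.2% (480 calls), in the order given for depth. A gain next to it, chr10:114926601-114926800, went from 22.8% to 52.7% in ISCs and from 26.8% to 53.0% in differentiated cells (adjusted p = 6.44e-14 and 3.82e-15, Fisher's exact test). Losses and gains thus stood within 4 kb of each other in the same intron.

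Some stretches of Lgr5 had unlike levels in the populations at P21, though no bin passed there with calls divided by the CpGs of the bin. In intron 1, just past the promoter, 3 adjacent bins (chr10:115020801-115021400) had 67.7% at P0 in ISCs and 61.9% in differentiated cells, and 29.96% and 47.2% at P21. They were called as a run for the loss in ISCs. The middle bin did not pass between the populations at P21 (18.4% in ISCs, 28.1% in differentiated cells, adjusted p = 0.670, Fisher's exact test). Close by, the bin chr10:115021601-115021800, centred 3136 bp into the gene, had 86.7% (80.2 to 91.3%) and 98.8% (93.7 to 99.8%) at P0, and 50.5% (41.2 to 59.7%) in ISCs against 88.3% (79.3 to 93.7%) in differentiated cells at P21. ISCs at P21 were the lowest in both places, and the P21 difference of 37.9 points in this bin was the second largest of that comparison (adjusted p = 0.000278, Fisher's exact test). In intron 7, 3 bins (chr10:114907801-114908400) rose in ISCs from 51.4% to 81.6% and had 63.7% and 64.3% in differentiated cells, so that ISCs were the lower population at P0 and the higher one at P21. Genes whose 12 levels (promoter, body and last exon in 4 libraries) were most like those of Lgr5 were Rgs10, 1110020G09Rik and Mrpl14, with root mean square differences of 1.71, 1.71 and 1.73 points among 15912 genes.

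Ascl2, the basic helix-loop-helix factor that sustains Lgr5+ cells, gained methylation upstream and lost it at its 3′ end. Upstream of the start, a single bin rose by more than 50 points in both populations, the clearest gain of the 10 genes, and it is printed for that reason (mm9, chr7:150157001-150157200, centred 1932 bp upstream, minus strand, CpGs in capitals).
Ascl2 upstream: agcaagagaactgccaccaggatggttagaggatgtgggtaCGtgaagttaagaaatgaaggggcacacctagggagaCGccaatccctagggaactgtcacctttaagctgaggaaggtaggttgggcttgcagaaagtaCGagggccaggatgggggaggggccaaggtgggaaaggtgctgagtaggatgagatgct
The bin had 42.9% (35.1 to 50.9%, 147 calls) in ISCs and 33.2% (27.2 to 39.8%, 211 calls) in differentiated cells at P0, and 96.4% (91.9 to 98.5%, 140 calls) and 88.1% (82.8 to 91.8%, 201 calls) at P21. The adjusted p was 7.84e-22 and 2.15e-28 (Fisher's exact test). At P0 the 3 CpGs formed a slope towards the gene, with 72.5%, 34.7% and 19.1% in ISCs and 62.3%, 24.7% and 6.56% in differentiated cells. At P21 the slope was nearly gone, with 100%, 100% and 88.4% in ISCs and 94.2%, 95.4% and 74.6% in differentiated cells.

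The last exon of Ascl2 (chr7:150152727-150153244, 7 CpGs) had 39.2% of 79 calls methylated at P0 in ISCs and 50.4% of 282 in differentiated cells, and 17.9% (84 calls) and 10.7% (233 calls) at P21. Both fell, by 21.4 points in ISCs (adjusted p = 0.0178) and by 39.6 points in differentiated cells (adjusted p = 3.44e-21, Fisher's exact test over all regions), the latter the 27th lowest of 17156 last exons. With the calls of each region divided by 5, as if 5 calls came from 1 molecule, the ISC change no longer passed. The body of Ascl2 was at 0.448% or less. The stretch of bins below 20% around its start widened from 2200 bp at P0 to 3400 bp at P21 in both populations.

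Smoc2, a secreted calcium-binding matrix protein of the crypt base, kept a body level of 76.2% to 77.5% in all libraries while single bins moved with age, among 350 tested, with 12 gains and 18 losses in ISCs and 14 gains and 14 losses in differentiated cells. The called bins were 8.57% and 8% of the total, beside the same 2.56% and 2.86%. A loss spanned a run of 3 bins in intron 8 (chr17:14509201-14509800), with 69.1% at P0 in ISCs and 58.1% in differentiated cells, and 10.9% and 8.95% at P21. Its last bin is printed as the largest loss of Smoc2 seen in both populations at once (mm9, chr17:14509601-14509800, plus strand, CpGs in capitals).
Smoc2 intron 8: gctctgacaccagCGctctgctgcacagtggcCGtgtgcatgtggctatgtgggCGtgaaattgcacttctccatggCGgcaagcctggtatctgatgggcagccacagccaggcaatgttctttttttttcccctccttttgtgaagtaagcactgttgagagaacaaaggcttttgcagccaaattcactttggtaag
Single CpGs of this bin lay between 72.5% and 95.2% at P0 and between 3.57% and 35.3% at P21, in either population. The bin as a whole had 85.4% and 85.3% at P0 and 20.2% and 17.2% at P21. At the 3′ end of Smoc2 a loss and a gain lay within about 1 kb. The run chr17:14534401-14534800 at exon 10 went from 73.7% to 4.88% in ISCs and from 78.7% to 4% in differentiated cells. The run chr17:14535601-14536000 in intron 10 went the other way, from 39.1% to 79.2% and from 41.8% to 87.8%. Upstream of the start, 4 bins (chr17:14415201-14416000) rose in differentiated cells from 26.2% to 57.3%, and ISCs had 31.0% and 45.4% there. Within them, a run of 2 bins (chr17:14415201-14415600) was also called as a gain in ISCs, from 55.8% to 77.2%.

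Olfm4, a secreted glycoprotein of crypt base cells in human gut, and Sox9, a Wnt-responsive transcription factor, had called bins at about the share of all bins. In Olfm4, ISCs had 1 loss with age among 42 bins and differentiated cells 2, with no gain, 2.38% and 4.76% beside 2.56% and 2.86% of all autosomal bins. Olfm4 had no tested CpG island bin, and its promoter window held 20 CpGs. That promoter had 41.2% (37.3 to 45.1%) and 38.5% (35.2 to 42.0%) at P0, and 46.2% (41.7 to 50.8%) in ISCs against 33.8% (30.1 to 37.8%) in differentiated cells at P21. The P21 difference of -12.3 points passed (adjusted p = 0.000528, Fisher's exact test), but not with the calls divided by 5. Sox9 was below 2.3% in promoter, body and last exon in every library, and its stretch below 20% was the widest of the 10 genes at P0, 6200 bp in ISCs and 5000 bp in differentiated cells, and 8000 bp at P21 in both. Of 41 bins of Sox9, 0 were called in ISCs and 1 loss, 2.44%, in differentiated cells.

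Msi1, an RNA-binding protein, lost methylation about 3 kb into the gene. A run of 2 bins in intron 4 (chr5:115882401-115882800) had 58.3% at P0 in ISCs and 52.0% in differentiated cells, and 12.3% and 21.2% at P21. Upstream, 2 bins (chr5:115878601-115879000) rose in ISCs from 15.6% to 42.9%, and differentiated cells had 20.6% and 29.7%. The last exon of Msi1 rose by 9.67 points in differentiated cells, from 71.02% to 80.7% (adjusted p = 0.000761, Fisher's exact test), and had 72.2% and 75.1% in ISCs. This call was lost with the calls divided by 5.

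Prom1, the membrane glycoprotein CD133, lost methylation on both sides of its start. The bin chr5:44496201-44496400, centred 3326 bp upstream, had 60% and 54.2% at P0 and 12% and 6.63% at P21. In all, 4 upstream bins of Prom1 lost methylation in both populations, as did 2 in intron 1 and 3 in intron 26 near its 3′ end, with a single shared gain in intron 5. These were among 288 tested bins, where 0.673% of all autosomal bins were shared losses and 0.255% shared gains. A run of 2 bins in intron 26 (chr5:44389801-44390200) had 40.5% at P0 in ISCs and 22.3% in differentiated cells, and 6.19% and 6.73% at P21. The body as a whole had 82.1% and 79.4%, then 81.3% and 79.1%. The promoter had 27.5% and 23.0%, then 23.0% and 23.8%, and its age difference in ISCs took the opposite sign, 6.44 in place of -4.44 points, in a window of 500 bp either side of the start. This promoter overlaps Gm16401, an annotated gene on the other strand.

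Cd44, the hyaluronan receptor and a Wnt target, lost methylation at the inner edge of its unmethylated start. Bins 882 and 1082 bp into the gene (chr2:102740601-102741000) had 31.8% at P0 in ISCs and 37.7% in differentiated cells, and 1.45% and 4.64% at P21. Farther in, chr2:102739601-102739800 had 78.4% and 76.1% at P0 and 12.2% and 32.9% at P21. The stretch below 20% at the start accordingly went from 1000 bp in ISCs and 1400 bp in differentiated cells to 1800 bp in both. The promoter had 28.3%, 17.2%, 22.9% and 18.5%. Its differences of -5.45 points with age in ISCs (adjusted p = 0.00347) and of -11.2 points between the populations at P0 (adjusted p = 5.42e-17, Fisher's exact test) depended on the window and the weighting. At 500 bp either side they were -1.54 and -0.365 points, and the mean of 9 bin levels turned the second to 3.13 points. The last exon of Cd44 had 86.5% at P0 in ISCs and 93.2% in differentiated cells (6.73 points, adjusted p = 0.00208, Fisher's exact test), and 90.7% and 93.1% at P21. With the calls divided by 5, the last exon call and the age call of the promoter were lost, and the promoter call at P0 was not.

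Bmi1, a Polycomb subunit, was the only member whose bins were all gains with age, 5 of 40 tested in ISCs and 2 in differentiated cells, where 1.07% and 0.992% of all bins were gains. Its body rose in ISCs from 38.4% (35.7 to 41.1%) to 49.3% (46.9 to 51.7%), a difference of 10.9 points (adjusted p = 1.45e-07, Fisher's exact test), and had 37.9% and 40.9% in differentiated cells. The P21 populations differed by -8.40 points (adjusted p = 9.62e-06, Fisher's exact test). Both calls were lost with the calls divided by 5. A run of 3 bins in intron 1 (chr2:18602401-18603000) took part in the rise with age but not in the P21 difference, with 12.3% at P0 in ISCs and 30.1% in differentiated cells and 41.2% and 40.1% at P21. ISCs at P0 were the lowest there and the other 3 libraries lay closer together. A bin at the outer edge of the promoter island (chr2:18597601-18597800) rose in both populations, from 60.2% to 82.1% and from 69.9% to 85.8%. This bin lies within the 3′ end of Commd3, the annotated neighbour that ends just before Bmi1.

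**Figure D3:**
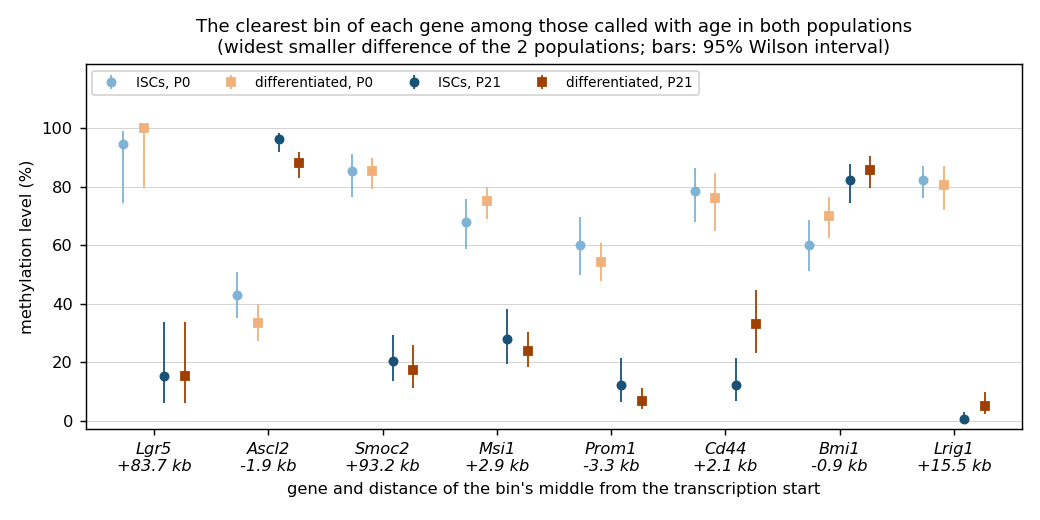
Methylation level (%) of 1 bin per gene, for the 8 genes that had a bin called in the same direction in both populations, with 95% Wilson intervals and the distance from the start in kb. Each bin was picked for the widest smaller difference of both populations, so the points separate by that choice. In 6 genes both P21 points lie below both P0 points, and in Ascl2 and Bmi1 they lie above. Lgr5, Smoc2 and Prom1 also had 3, 5 and 1 shared gains that are not shown.

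The age changes of both populations rest on separate libraries, but may share animals. The methods describe the pooling of mice by age and not by population, so both populations of an age may come from the same mice. Of the 1732 bins, 126 lost and 11 gained methylation in both, 7.27% and 0.635% of the bins against 0.673% and 0.255% of all autosomal bins, and 0 were called in opposite directions. Lrig1 held 92 of the shared losses, and the other 9 genes held 34 losses and all 11 gains. The correlation of the age difference between the populations, given as a description across bins that share libraries and neighbours, was 0.728 over the 1732 bins, 0.874 within Lrig1 and 0.521 without it. Neither the share of opposite calls nor this correlation is given here for all autosomal bins. Whether such likeness of the populations is particular to these genes was therefore not tested. At P21, 68 of the 126 shared losses were below 20% in both populations, 54 of 92 in Lrig1 and 14 of 34 elsewhere, with 8 of 11 in Smoc2 but 2 of 9 each in Lgr5 and Prom1. The same share among the 27418 shared losses of all autosomal bins is not given here, so these counts have no background. Outside Lrig1, the 143 bins called in either population were spread much as the 1429 tested ones, with 111 in introns (1103 of those tested), 9 upstream beyond 1 kb (90), 12 in exons (151) and 11 within 1 kb of the start (85). In CpG islands, here windows of 500 bp with at least 25 CpGs, lay 6 of them and 102 of those tested. At P0, 98 of the 143 and 392 of the 1429 had a level between 20% and 80% in ISCs. A bin at the floor cannot lose 15 points and one at the ceiling cannot gain them. How far this rule accounts for the shares was not tested.

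**Figure D4:**
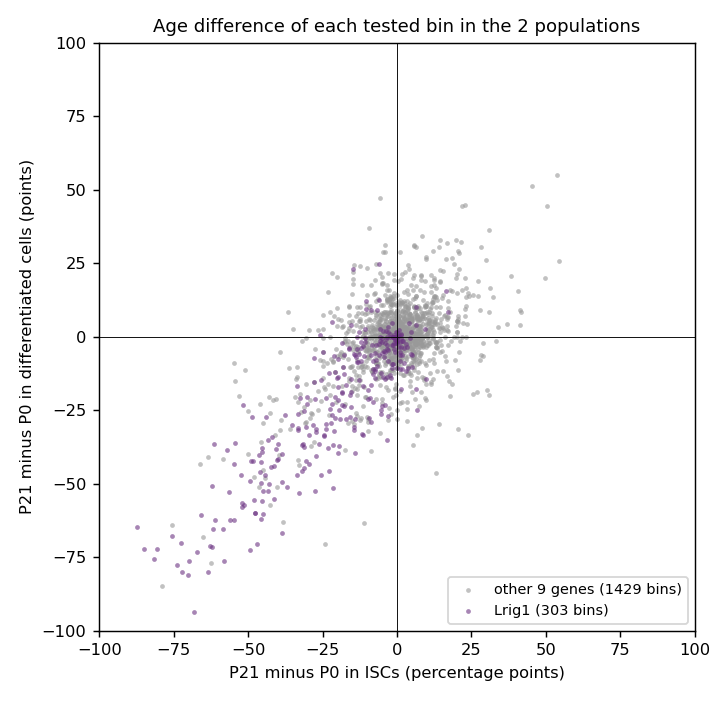
Difference from P0 to P21 in ISCs (x axis) against that in differentiated cells (y axis), in percentage points, for each of the 303 tested bins of Lrig1 (purple) and the 1429 of the other genes (grey). The Lrig1 bins run along the diagonal to the lower left, where both populations lost methylation.

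Differences between the populations at a given age were few. At P0, 23 of the 1732 bins were called between differentiated cells and ISCs, 1.33% against 0.508% of all bins. Of these 15 were higher in differentiated cells (0.288% of all bins) and 8 lower (0.22%). At P21 there were 9, 0.520% against 0.182%, with 6 higher (0.0711% of all bins) and 3 lower (0.111%). When calls were divided by the number of CpGs in the bin, so that a read counted about once, 0 bins passed in either comparison, while 32 and 64 still passed with age. The share of all bins at this weighting is not given here, so these counts have no background beside them. The largest at P0 were in intron 1 of Olfm4 (chr14:80402601-80402800, 38.2% in ISCs and 92.3% in differentiated cells), intron 2 of Prom1 (chr5:44470401-44470600, 64.0% and 16.7%) and intron 1 of Smoc2 (chr17:14425001-14425200, 30.4% and 70.5%). These rested on 25 to 88 calls. At P21 the largest, next to Lgr5 above, were in intron 1 of Cd44 (chr2:102722801-102723000, 35 of 35 calls in ISCs and 56.2% in differentiated cells) and intron 4 of Msi1 (chr5:115882001-115882200, 20.1% and 49%).

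Promoter, body and last exon gave 29 regions that could be tested, the last exon of Lrig1 having fewer than the 2 CpGs required. A region was called at an adjusted p below 0.05 over all 55877 regions of the genome and a difference above 5 points. With age 4 of the 29 were called in ISCs (background 10.1%) and 3 in differentiated cells (background 9.98%). Between the populations 2 were called at P0 (background 11.2%) and 2 at P21 (background 8.76%). The counts are near what the background gives for 29 regions. All are named above. The change with age itself differed between the populations in 4 of the 29, by a z test of the difference of differences (background 5.23%), in the promoters of Lgr5, Prom1 and Cd44 and the body of Bmi1. None of the 4 passed with the calls divided by 5 or above 15 points, and the Prom1 contrast took the other sign with 500 bp either side of the start. Promoters were below 8% in 7 of the 10 genes in all libraries, and bodies above 65% at P0 in 7.

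**Figure D5:**
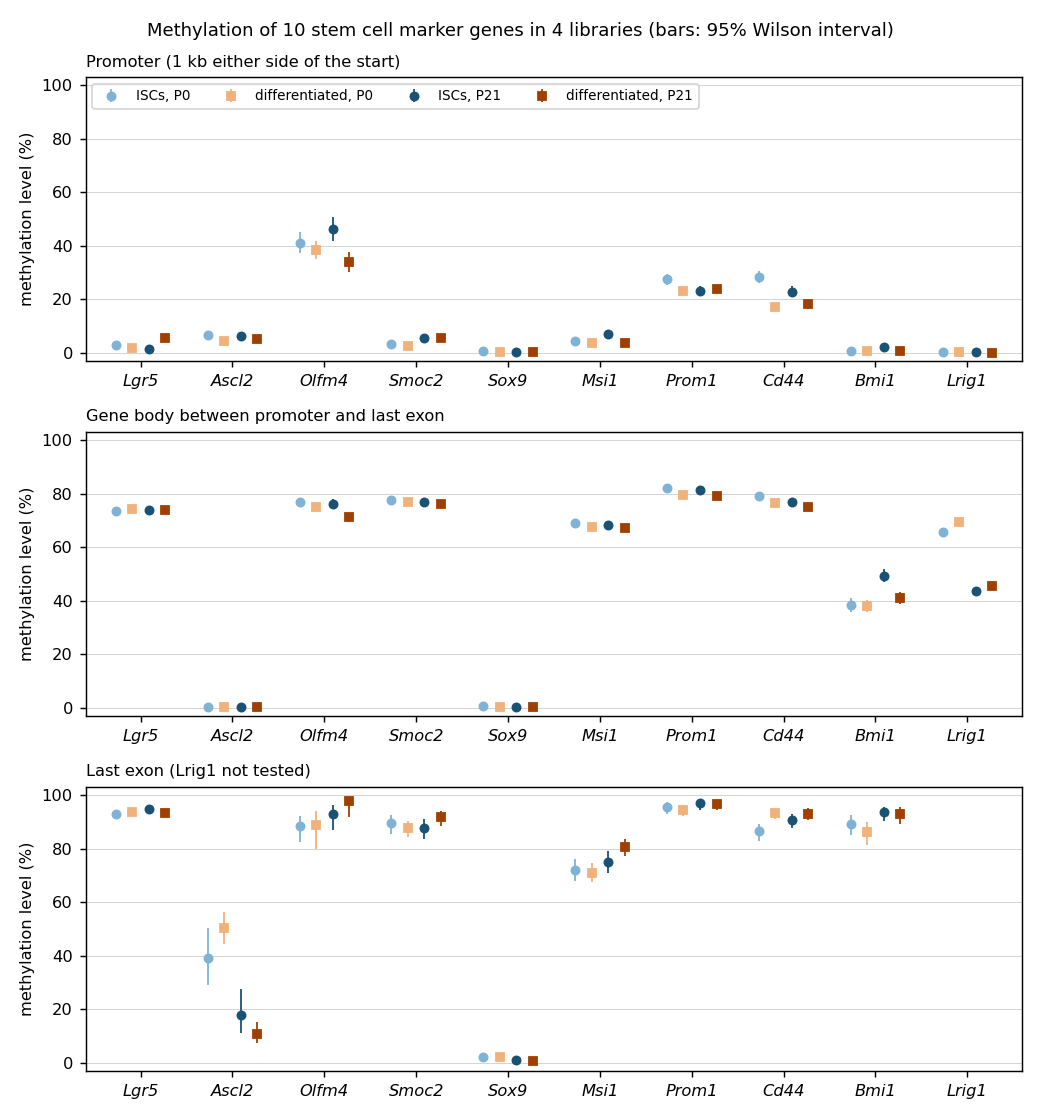
Methylation level (%) of the promoter (top), body (middle) and last exon (bottom) of the 10 genes in the 4 libraries, with 95% Wilson intervals. Both P21 points of the Lrig1 body and of the Ascl2 last exon lie below the P0 points, and the ISC point of the Bmi1 body at P21 lies above the other 3.

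Other crypt base and Wnt-linked genes, a list of 16, were read in the same way. This list was chosen with earlier results of these data known, so its share of losses is a description and not independent support. Their bodies were called as losses in 7 of 16 genes in ISCs and 7 of 16 in differentiated cells, with no gain, where 4.82% and 5.55% of all bodies were called as losses. Medians were -1.83 and -2.54 points, beside -0.191 and -0.482 over all genes. The losses included the BMP co-receptor Rgmb (67.3% to 28.0% in ISCs), the Wnt feedback genes Axin2 (71.2% to 52.7%) and Rnf43 (50.9% to 37.8%), and Ephb3 (74.8% to 60.4%). The study itself had picked Rnf43 from these libraries as a gene that lost methylation in ISCs. Bodies of Znrf3 (75.2% and 75.5%) and Lgr4 (52.7% and 53.8%) did not pass. For comparison, promoters of 10 differentiated colonocyte genes were called as losses in 3 of 10 in ISCs and 7 of 10 in differentiated cells, with no gain, where 5.62% and 4.52% of all promoters were called as losses. Slc26a3, the colonic chloride and bicarbonate exchanger, had 22.3% and 18.1% at P0 and 5.88% and 4.93% at P21.

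The promoters of the 10 genes (250 bases before to 50 after the start) were searched on both strands for CTTTGAT, a TCF/LEF motif of Wnt target genes, and for CAGCTG, an E-box of the kind Ascl2 binds. They held neither, where 3.29% and 15.3% of all 21410 promoters did, and the 4 printed sequences held neither.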

How the data were processed

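Whole-genome bisulfite libraries of 4 groups, 1 library each, were grouped by the labels of the samples. Reads (100 bp, paired ends) were mapped by the authors to mm9 with Bismark and Bowtie, per the labels. Tool versions and the treatment of duplicate reads are not given in the sources used. The authors deposited, for each CpG cytosine of either strand, 2 counts, the calls in total and the methylated ones. The deposited fraction equalled the ratio of the counts (0 positions differed) and was not used.

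Both strands of each mm9 CpG were summed, and 0.469% to 0.860% of autosomal positions, at no reference CpG, were left out. The median tested bin had 55 to 81 calls over the libraries, and no upper limit was set. Gene models were GENCODE M1, taking for each gene its transcript of longest coding sequence. Promoters took precedence over last exons and last exons over bodies. Two-sided Fisher's exact tests were adjusted (Benjamini-Hochberg) over all autosomal bins or regions. Whether the age change differed between populations was tested with a z statistic from binomial variances.

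Bins are named by a rule: the 3 largest called differences per comparison, runs of adjacent called bins, and bins called with age in both populations, from which the clearest are given. The members and lists were chosen with earlier results of these data known. Alternatives changed the minimum calls and CpGs, the size of the difference, the test, the weighting of calls, the bin positions, deep CpGs, the promoter window and the start site. The procedure was also run on simulated counts drawn as independent calls. Such counts cannot show the effect of PCR copies, of CpGs on the same read or of the spread between animals. Python 3.11.15, numpy 2.4.6, scipy 1.17.1 and numba 0.67.0 were used. Sequences were read from the mm9 genome.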

Additional observations from a re-analysis of the deposited data

Results flagged for a closer look

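The change with age differed between the populations in 4 of the 29 regions of the 10 genes (z test over 55877 regions, adjusted p below 0.05 and more than 5 points, passed by 5.23% of all regions). The values are the change in differentiated cells minus that in ISCs, from 1 library each. The Lgr5 promoter had 5.50 points (interval 3.73 to 7.26). The Prom1 promoter had 5.23 points (1.73 to 8.73) and the Cd44 promoter 6.79 points (3.23 to 10.3). The Bmi1 body had -7.91 points (-12.7 to -3.09). In a window of 500 bp either side of the start, the age difference of the Prom1 promoter was 6.44 points in ISCs and 0.476 in differentiated cells, so that the contrast took the other sign, and the Cd44 promoter and the Bmi1 body no longer passed. With the calls of each region divided by 5, none of the 4 passed.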

How the results depend on the processing

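Counts of called bins are given in the order ISCs with age, differentiated cells with age, populations at P0 and populations at P21, where the reported counts were 193, 229, 23 and 9. Past 15 points without a test there were 390, 390, 198 and 140, where 13.5%, 12.1%, 10.6% and 9.53% of all bins passed. With calls divided by the CpGs of a bin there were 32, 64, 0 and 0. At a minimum of 4 CpGs the age counts were 110 and 111. Above 30 points the last 3 counts were 137, 6 and 2, and with calls thinned to the lowest library the last pair was 7 and 5. Without Lrig1, chosen after seeing the data, the age counts were 93 and 95. A minimum of 20 calls, bins shifted by 100 bp and CpGs above 200 calls left out kept all 4 counts within 1.5 times. Shares of all bins are not given here for settings that change the calls, the CpGs, the bins or the size of the difference. Those counts therefore have no background beside them.

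Of the regions (4, 3, 2 and 2 called), a limit of 15 points left 2 in ISCs with age, 0 at P0 and 0 at P21. Calls divided by 5 left 1, 1 and 0 in the same comparisons. A promoter of 500 bp either side gave 5 in differentiated cells with age. Shares of all regions under these settings are not given here. The 4 regions whose age change differed between populations became 0, 0 and 2 under these settings (added after seeing the data). Of 580 single differences recomputed, 514 stayed as they were, 10 lost and 6 gained a call, 47 moved and 3 took the other sign. The 514 include differences called under neither setting, which had no call to lose, so they say little of how firm the calls are. With calls divided by 5, 7 of the calls counted above (4, 3, 2 and 2) were lost. All 47 that moved were among the 116 taken as a mean of bin levels, of which 68 stayed. The other sign was taken by the Prom1 promoter at 500 bp (6.44 with age in ISCs and 6.65 between populations at P0). It was also taken by the Cd44 promoter at P0 as a mean of bin levels (3.13). The cause was not tested.

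With 1 library per group, counting error is the only error known, and shallow bins show only large differences. The labels give no replicate numbers to pair, and a fit of age with population as a block was not run.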
